A study of Mus musculus with 2 samples.

Results

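Long-read RNA sequencing of the mouse hippocampus yields models that carry the 3′ part of the intron chain of an annotated transcript. They lack introns at its 5′ side and, in most cases, exonic sequence there. Such a model is called here a suffix model. TALON, the program that built the models, places each read in an annotated or a new model and gives an incomplete splice match of this kind the class ISM with the subtype Suffix. The account covers the spliced suffix models, with 2 or more exons, that held 5 or more reads in each of the 2 libraries. Models were joined between libraries by chromosome, strand and chain of introns, and 2422 of the 162512 spliced chains with a read met the rule. The models were thus chosen by their read counts in both libraries and their class, so their levels are given as a description.

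The tissue was the hippocampus of B6NCrl mice, a strain of the C57BL/6 background, 6 months of age and labelled male, with no treatment or altered allele named. The labels give 1 group of 2 libraries, replicate 1 and replicate 2, which are separate biosamples under 1 donor identifier. Whether 2 animals were sampled is not stated, so the spread between the libraries may be technical, and every test below compares libraries, not conditions. Replicate 1 held 1330153 reads and replicate 2 held 1366252, of which 1004727 and 1101723 lay on spliced models. All 9 markers of dentate gyrus, CA1 and CA3 neurons that were looked up had between 26 and 559 reads in each library. Ttr, the transthyretin gene of the choroid plexus, had 15914 reads in replicate 1 and 107 in replicate 2, and a single suffix model came from the 12 genes of the choroid plexus list.

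A messenger RNA is read from its poly(A) tail towards its cap when cDNA is made, so a copy that stops early keeps the 3′ exons and loses the 5′ ones. A transcript that starts at a promoter further inside the gene has the same appearance, as does an RNA shortened from its 5′ end. Classes of this kind in long-read data therefore mix RNA species and incomplete copies, and the deposited models do not separate them. Levels are in reads or in CPM, reads per 1000000 reads of the library. A long read stands for 1 cDNA molecule, so these values are not divided by length.

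The exon edges shown first belong to models described further below, and they show what a suffix model keeps and what it lacks. Each line gives 60 bases of coding sequence from a GENCODE M21 transcript, with the last 30 bases missing from the model in lower case and the first 30 bases of the model in capitals. Coordinates (mm10) are those of the capitals. The lines begin with 7 steps of Pkm, the pyruvate kinase of muscle and brain, and 3 steps of Hspa8, the constitutive heat shock cognate chaperone.
Pkm, 2 exons missing, chr9:59665863-59665892, plus strand: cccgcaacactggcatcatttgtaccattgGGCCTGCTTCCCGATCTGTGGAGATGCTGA
Pkm, 3 exons missing, chr9:59668549-59668578, plus strand: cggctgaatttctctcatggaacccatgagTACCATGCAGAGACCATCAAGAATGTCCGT
Pkm, 4 exons missing, chr9:59668913-59668942, plus strand: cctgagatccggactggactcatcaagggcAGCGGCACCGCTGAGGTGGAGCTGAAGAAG
Pkm, 5 exons missing, chr9:59670467-59670496, plus strand: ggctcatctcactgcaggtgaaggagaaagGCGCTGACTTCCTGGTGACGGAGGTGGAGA
Pkm, 6 exons missing, chr9:59671575-59671604, plus strand: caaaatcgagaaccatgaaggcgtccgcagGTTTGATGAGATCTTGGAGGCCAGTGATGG
Pkm, 8 exons missing, chr9:59675029-59675058, plus strand: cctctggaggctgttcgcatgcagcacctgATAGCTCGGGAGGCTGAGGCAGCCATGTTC
Pkm, 9 exons missing, chr9:59678044-59678073, plus strand: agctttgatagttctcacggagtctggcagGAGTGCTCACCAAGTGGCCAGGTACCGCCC
Hspa8, 4 exons missing, chr9:40802974-40803003, plus strand: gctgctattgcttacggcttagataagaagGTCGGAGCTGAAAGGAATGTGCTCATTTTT
Hspa8, 5 exons missing, chr9:40803740-40803769, plus strand: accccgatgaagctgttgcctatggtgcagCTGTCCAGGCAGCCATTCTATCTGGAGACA
Hspa8, 6 exons missing, chr9:40804165-40804194, plus strand: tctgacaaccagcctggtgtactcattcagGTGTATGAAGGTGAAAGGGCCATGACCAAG
Nsf, 13 exons missing, chr11:103862020-103862049, minus strand: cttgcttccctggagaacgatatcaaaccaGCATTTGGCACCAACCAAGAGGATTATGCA
App, 11 exons missing, chr16:84978256-84978285, minus strand: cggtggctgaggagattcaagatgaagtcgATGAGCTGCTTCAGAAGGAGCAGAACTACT
Aldoa, 7 exons missing, chr7:126795783-126795812, minus strand: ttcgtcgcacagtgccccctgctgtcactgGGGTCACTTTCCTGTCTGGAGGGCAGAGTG
Gria2, 10 exons missing, chr3:80707229-80707258, minus strand: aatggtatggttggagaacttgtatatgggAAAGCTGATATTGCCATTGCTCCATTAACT

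The next lines show, in the same way, the starts of models in genes whose suffix models held most spliced reads of the gene, and of models that lacked more than 70 exons.
Tymp, 7 exons missing, chr15:89374133-89374162, minus strand: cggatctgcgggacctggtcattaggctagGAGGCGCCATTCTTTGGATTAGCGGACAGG
Slc5a5, 11 exons missing, chr8:70887846-70887875, minus strand: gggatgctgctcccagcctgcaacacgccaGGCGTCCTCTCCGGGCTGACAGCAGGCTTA
Myh7, 31 exons missing, chr14:54975388-54975417, minus strand: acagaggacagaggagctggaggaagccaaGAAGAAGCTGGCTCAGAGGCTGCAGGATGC
Huwe1, 75 exons missing, chrX:151930063-151930092, plus strand: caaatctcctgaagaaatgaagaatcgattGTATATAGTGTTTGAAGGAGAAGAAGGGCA
Dync1h1, 71 exons missing, chr12:110664536-110664565, plus strand: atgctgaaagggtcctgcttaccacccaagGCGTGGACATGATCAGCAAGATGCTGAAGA

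A limit touches every statement on 5′ ends. In 1498 of the 2422 models the deposited 5′ end lay on the 5′ edge of an internal annotated exon, to the base. In another 665 it lay on an annotated transcript start. The base at which each read began is not part of these values, so whether read ends were moved to annotated edges or starts was not tested. The deposited 5′ end was the same base in both libraries for 2009 models (82.9%), and the 3′ end for 1771 (73.1%). Among models with an annotated match, the 5′ end was the same for 90.6% at internal exon edges and 84.4% at annotated starts. It was the same for 37.3% of those that began inside an exon and 25% of those upstream of one. Exons held and exons missing are read from the intron chain and do not depend on the deposited 5′ end.

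Suffix models of any depth held 9.38% ± 0.26 (SD, n = 2) of spliced reads. The share was 9.56% in replicate 1, with an exact Clopper-Pearson 95% interval of 9.51% to 9.62%, and 9.20% in replicate 2, with an interval of 9.14% to 9.25%. Intervals cover counting error alone, since no molecular identifiers are described. Prefix models, the counterparts that keep the 5′ exons, held 4.74% and 4.44%, and annotated chains held 77.2% and 77.7%. A single read supported 59.4% and 58.4% of the 35637 and 36701 suffix models. The 2422 models held 37906 and 40616 reads, which were 3.73% ± 0.061 (SD, n = 2) of spliced reads and 39.4% and 40.1% of suffix reads.

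The class label rests on a match to annotated transcripts, so its match to GENCODE describes the members and does not test the label. The intron chain of 2379 models was the 3′ part of an annotated GENCODE chain. Of the other 43, 18 held an intron absent from the annotation, 14 joined annotated introns in an unannotated combination and 11 were an inner stretch of an annotated chain. Atl1, the gene of the endoplasmic reticulum GTPase atlastin, gave the deepest of these 43, with 82 and 123 reads. All but 5 models were of protein-coding genes. The exceptions came from Gas5, a host gene of small nucleolar RNAs, with 3 models, from Ptpmt1 and from 2410006H16Rik.

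Depth was low for most models, with a median of 9 reads in replicate 1 and 10 in replicate 2. The highest counts were 668 and 635, both on Atp5f1. The mean level ran from 3.71 to 484 CPM, with a median of 7.06. Levels in the 2 libraries were within 1.5 times of each other for 1717 models (70.9%) and within 2 times for 2211 (91.3%). The rule asks for reads in both libraries, so this closeness is in part set by the choice of models. Of the 93 models with 50 or more reads in each library, 90 were within 1.5 times. At the threshold, 538 models had a lower count of exactly 5 and were taken in, while 852 suffix chains had a lower count of 4 and were left out.

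**Figure D1:**
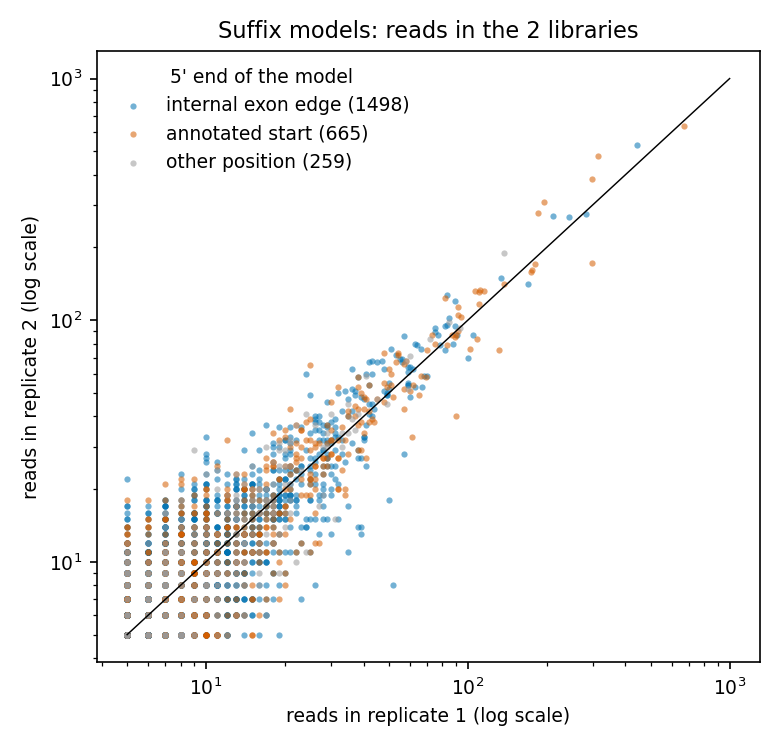
Reads of each of the 2422 suffix models in replicate 1 (x axis, log scale) and replicate 2 (y axis, log scale), 1 point a model, coloured by where the deposited 5′ end lies; the line marks equal counts. Most points lie near the lower corner, with medians of 9 and 10 reads, and Atp5f1 lies at the upper end with 668 and 635.

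The 10 models of highest mean level came from 10 genes. Atp5f1, a subunit of mitochondrial ATP synthase, gave a model at chr3:105942698-105959246 (minus strand) with 668 reads in replicate 1 and 635 in replicate 2, or 484 ± 26.5 CPM (SD, n = 2), with 1 exon missing. Gpm6a, a membrane glycoprotein of neurons, gave a model at chr8:55037328-55059840 (plus strand) with 444 and 529 reads, 360 ± 37.8 CPM (SD, n = 2). Nell2, a secreted protein with EGF-like repeats, gave 315 and 476 reads, and Pld3, a lysosomal enzyme of neurons, gave 297 and 385. For these genes the model was among the leading spliced forms, with 89.0% of spliced reads of Atp5f1, 29.0% of Gpm6a, 38.9% of Nell2 and 74.9% of Pld3.

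Hspa8 gave a model at chr9:40802974-40805199 (plus strand) with 282 and 274 reads and 4 exons missing, which was 2.93% of its spliced reads, beside 7536 and 9797 reads on its annotated transcripts. Psmc2, an ATPase subunit of the proteasome, gave 244 and 267 reads. Clcn4, a chloride and proton exchanger of endosomes, gave 195 and 309. Cadm1, an adhesion molecule of synapses, gave 211 and 269. Prkar1a, a regulatory subunit of protein kinase A, gave 185 and 278. The range of shares among these 10, from 2.93% to 89.6%, shows that a high level was reached both in genes where the suffix model was a small part and in genes where it led.

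Ppp2r1a, the scaffold subunit of protein phosphatase 2A, was the member of the 10 with the widest gap relative to its gene, at 298 reads in replicate 1 and 172 in replicate 2. It lacked 4 of 15 exons. Reads on the annotated transcripts of Ppp2r1a ran the other way, at 855 and 1254.

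The number of exons missing at the 5′ side was counted against the annotated transcript that needed the fewest. It was read from the intron chain, so a first exon that runs on through an annotated intron also counts as a missing exon. The Tagap1 model lacked 1 exon by this count but 0 exonic bases of its reference, and had 2549 bases against 2312. A single exon was missing in 823 models (34.6%), 2 in 307, 3 in 228, 4 or 5 in 320, 6 to 10 in 382 and 11 or more in 319. Models that lacked 1 exon held 43.1% and 43.8% of the reads, above their share of models. Models that lacked 11 or more were 13.4% of models and held 8.55% and 8.79% of reads. At least 3 exons were missing in 1249 models. For 826 models the number depends on which annotated transcript is taken.

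**Figure D2:**
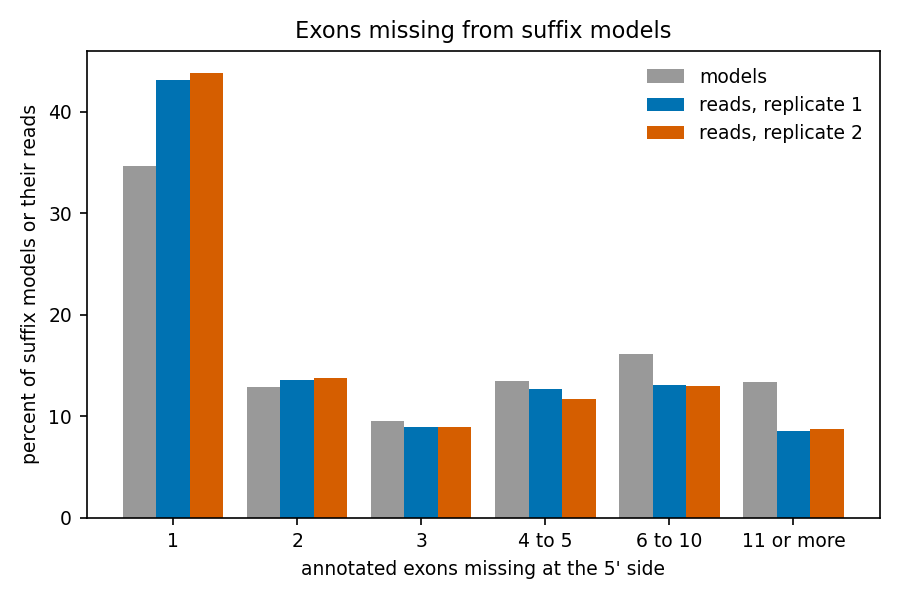
Percent of suffix models (grey) and of their reads in each library (blue, orange) by the number of annotated exons missing at the 5′ side, over the 2379 models with an annotated match. The bars for 1 missing exon are the highest, at 34.6% of models and 43.1% and 43.8% of reads.

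The median model had 5 exons and 1601 bases, with quartiles of 1115 and 2149 bases. Its reference transcript had a median of 2471 bases, and the median model kept 72.3% of the exonic sequence of itself and its missing part. Median model length was 1659 bases where 1 exon was missing and 1668 bases where 11 or more were missing. The median reference length in these 2 sets was 1916 and 4234 bases. By reference length, median model length ran from 799.5 bases for references under 1000 bases, with a median of 1 exon missing, to 2174 bases for references of 4000 or more, with a median of 8. Annotated chains under the same read rule had a median of 2209 bases and 7 exons, and the 1254 prefix models had a median of 1109 bases and 7 exons.

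The loss reached the coding region in most models. Judged from the 5′ end of the model alone, the coding region of the reference transcript was cut in 1744 models (73.3%) and kept whole in 379 (15.9%). It was lost in 46, and the reference was noncoding in 210. A whole coding region was kept by 346 of the 823 models that lacked 1 exon, by 26 of the 307 that lacked 2, and by none of the 382 that lacked 6 to 10 or the 319 that lacked more. Atp5f1, Nell2, Pld3, Psmc2, Clcn4 and Prkar1a were among the whole ones, so their leading suffix models began at or ahead of the start codon. They can differ from the reference elsewhere too. The Prkar1a model had 1390 bases, against 3513 in its reference, of which 257 were missing at the 5′ side. Gpm6a, Hspa8, Cadm1 and Ppp2r1a were cut.

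The models that lacked most exons came from genes of very long transcripts. Huwe1, a HECT-type ubiquitin ligase, gave a model of 6 exons with 75 missing, at 10 and 5 reads. Hectd4, of the same ligase family, gave 2 exons with 74 missing, at 9 and 8 reads. Dync1h1, the heavy chain of cytoplasmic dynein, gave 3 of the 6 models with most exons missing, lacking 74, 72 and 71 exons, with 7 and 6, 9 and 7, and 14 and 9 reads. Herc1, another HECT-type ligase, gave 7 exons with 71 missing, at 5 and 7 reads. In these 6 models the annotated transcripts they matched had 0 reads in both libraries, where 3 reads per library is the number a count of 0 allows.

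Members were unevenly spread over 1157 genes. A single model came from 717 genes, 2 to 4 from 322, and 5 or more from 118, of which 22 genes gave 10 or more. The 6 genes with most models were Ppp3ca with 20, Nell2 with 17, Nsf with 15 and Ndrg2, App and Aplp1 with 13 each. Ppp3ca is the catalytic subunit of calcineurin, Nsf the ATPase that takes SNARE complexes apart, Ndrg2 an astrocyte gene, and App and Aplp1 the amyloid precursor protein and its paralog. These genes also had many reads, with 821 to 1812 spliced reads in replicate 1 for Ppp3ca, Nell2, Ndrg2 and App, 559 for Nsf and 518 for Aplp1.

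Within such genes the models formed ladders, in which successive models lacked 1 exon more by the count from the intron chain. A step did not always shorten the model. In Hspa8 the models counted as lacking 2 and 3 exons began at the same base and had 1894 and 2009 bases. The reference could also change within a gene, so a low count did not always mark a nearly complete model. In App the models of 4 and 3 exons were counted as lacking 1 and 2 exons of a 5-exon transcript of 726 bases. The App model of 15 exons was counted as lacking 1 exon of a 16-exon transcript. In 34 genes the ladder ran without a gap from 1 missing exon over 5 or more steps. Atp6v1a, a subunit of the vacuolar proton pump, had 13 steps, and App, Ppp3ca and Eef2, the elongation factor of translation, had 11. Pkm had 9 steps with 32, 23, 14, 41, 59, 27, 30, 31 and 41 reads in replicate 1 for 1 to 9 missing exons. In replicate 2 the same steps had 53, 25, 19, 60, 61, 40, 35, 25 and 37 reads. The lowest step lacked 3 exons in both libraries and the highest lacked 5. Together, suffix reads were 14.1% and 12.7% of the spliced reads of Pkm.

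Hspa8 had 7 steps, with 107, 110, 58, 282, 48, 91 and 92 reads in replicate 1 and 132, 131, 68, 274, 63, 87 and 113 in replicate 2. The step that lacked 4 exons stood above the other 6 in both libraries, and the step that lacked 5 was lowest in both. The same 4-exon step has the start printed above at chr9:40802974-40803003. In Nell2 the step that lacked 1 exon, with 315 and 476 reads, stood far above the others, which ran from 5 to 30 reads in replicate 1 and from 10 to 33 in replicate 2. In Nsf the 15 models ran from 6 to 32 reads and from 6 to 50 reads, with the highest step at 13 missing exons in both libraries. In App the step that lacked 11 exons had 59 and 54 reads, and the step that lacked 5 had 43 and 60.

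The place of the leading model differed between genes, by a count whose reference could change between models of 1 gene. Of 232 genes with 3 or more different numbers of missing exons, the model with most reads was the one that lacked fewest exons in 92 (39.7%), the one that lacked most in 35 (15.1%) and one in between in 105 (45.3%).

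**Figure D3:**
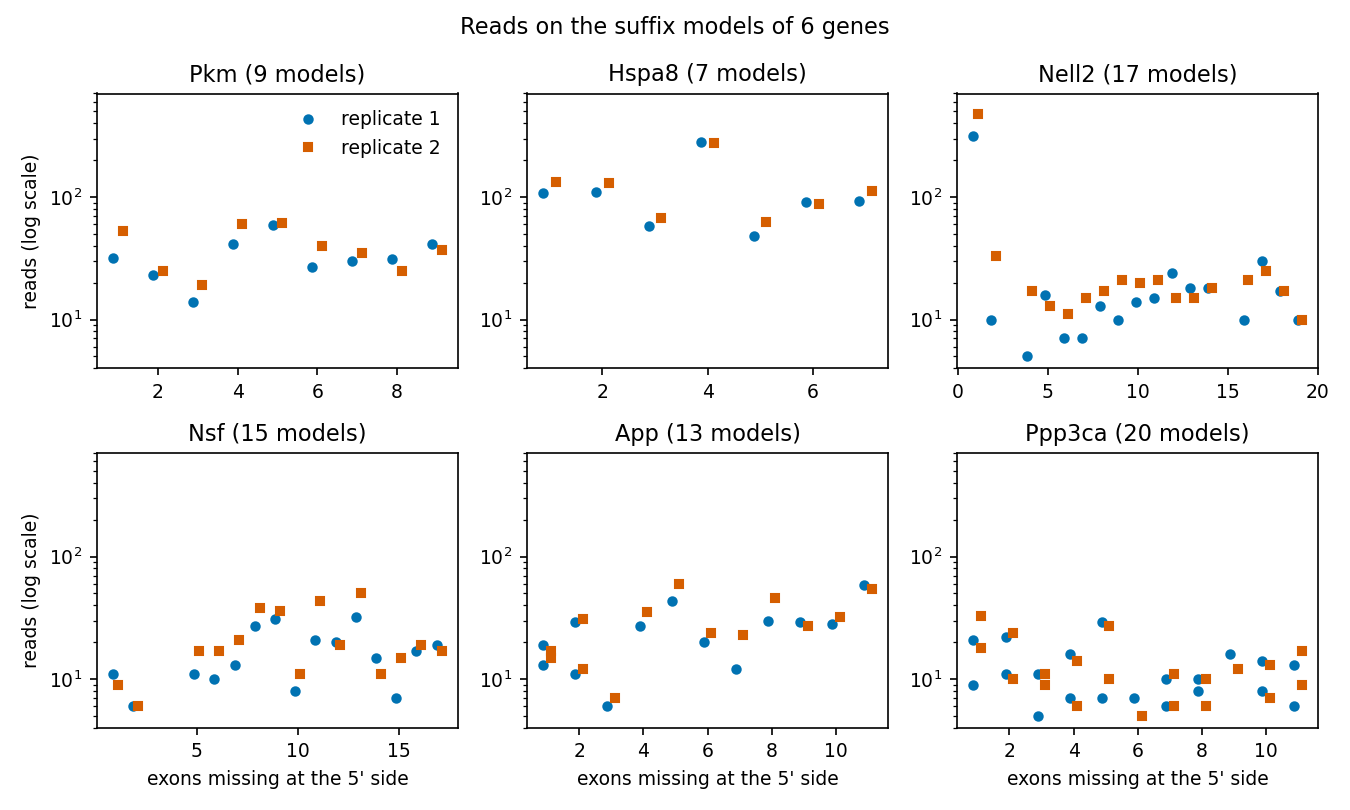
Reads (log scale) of each suffix model of 6 genes against the number of exons missing at the 5′ side, for replicate 1 (blue circles) and replicate 2 (orange squares). Each model is counted against the reference that needs fewest, so the App models of 4 and 3 exons stand at 1 and 2. The highest step was the same in both libraries for Hspa8, Nell2, Nsf and Pkm, as at the peak of Hspa8 at 4 missing exons (282 and 274 reads) and that of Nell2 at 1 (315 and 476).

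The exon edges at which any of the 2422 models began were compared with other edges of the same transcripts. The other edges can hold starts of suffix models with fewer reads than the rule asks for. Over the reference transcripts of models cut at an internal exon edge, 1147 coding edges held a start of the 2422 models and 4009 did not. The edge with a start lay a median of 1703 bases from the 3′ end of the transcript, with quartiles of 1146 and 2376, and the other edges 2360 bases, with quartiles of 1394 and 3881. As a share of the transcript, the part upstream of the edge was alike in the 2 sets, with medians of 33.5% and 34.1%. The exon that followed was longer at the edges with a start, with a median of 151 bases against 124. The GC content of the 60 bases around the edge had the same median in both sets, 51.7%. Edges of 1 transcript share its depth, and these values carry no test.

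By position, 1498 models (61.9%) began at an internal exon edge and 227 (9.37%) inside an exon. At the base of an annotated transcript start lay 665 models (27.5%). Another 29 began upstream of the annotated exon that matches their first exon, and 3 had no annotated exon to compare with. Within 50 bases of an annotated start lay 675 of the 2422 suffix models, against 1242 of 1254 prefix models and 8365 of 8366 annotated chains. Prefix models by class keep the exons at the start of an annotated transcript, and annotated chains match a whole transcript. Closeness to an annotated start was thus largely set by class for prefix models and annotated chains, and nothing is read from the contrast. Of the 665, 219 lay at the start of a protein-coding transcript, 299 at the start of a retained-intron transcript with no protein-coding one there, and 147 at other kinds. Starts of retained-intron transcripts without a coding one made up 15.4% of all annotated starts. That base includes the outermost starts of genes and the starts of genes silent in this tissue. Suffix models by class lack upstream introns of an annotated transcript, so the base is not matched to them and nothing is read from this gap.

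Among models with an annotated match, those at annotated starts had a median of 1 missing exon against 3 for those at internal edges. They kept the whole coding region in 33.3% of cases against 10.6%. The 6 of highest level were Atp5f1, Nell2, Pld3, Clcn4, Ppp2r1a and Prkar1a, already described. Of 2364 models whose starts were compared with RefSeq, 88 began within 50 bases of a RefSeq start (GRCm38.p6), and 73 of these lacked a single exon.

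Promoter sequence is shown for the 4 models of highest level that began within 50 bases of a RefSeq start, held more reads than the annotated transcripts they match and had no annotated exon in the 100 bases upstream. Each line gives those 100 bases, credited to RefSeq (GRCm38.p6), with matches on either strand to 3 short motifs, whose letters follow the sequences, in capitals. Overlapping matches run together.
Tagap1, chr17:6961157-6961256, minus strand: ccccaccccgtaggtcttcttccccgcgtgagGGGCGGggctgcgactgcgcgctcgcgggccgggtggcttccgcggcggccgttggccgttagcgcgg
Nat14, chr7:4922151-4922250, plus strand: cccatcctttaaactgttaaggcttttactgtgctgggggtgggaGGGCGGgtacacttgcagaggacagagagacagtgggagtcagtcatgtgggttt
Tox4, chr14:52279046-52279145, plus strand: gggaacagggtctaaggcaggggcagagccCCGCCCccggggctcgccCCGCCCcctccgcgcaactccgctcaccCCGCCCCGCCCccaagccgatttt
Gpr19, chr6:134887862-134887961, minus strand: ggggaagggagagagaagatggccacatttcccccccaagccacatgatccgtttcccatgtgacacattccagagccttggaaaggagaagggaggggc

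The letters GGGCGG of the GC box occurred on either strand in the 250 bases upstream of 50 of the 81 RefSeq starts that lay near a model start (61.7%), against 32.7% of 32817 RefSeq starts in all. The TATA box letters TATAAA occurred at 4 of the 81 (4.94%) against 12.4%. The CCAAT box letters occurred at 32 (39.5%) against 33.8%. All RefSeq starts include those of genes silent in this tissue, and a match describes letters, not binding. Tagap1, a GTPase-activating protein first described in T cells, gave 69 and 58 reads, Nat14 39 and 50, Tox4 33 and 24, and Gpr19, an orphan receptor, 28 and 27. Their matched annotated transcripts held at most 1 read in each library.

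For most models the annotated transcripts they matched held far more reads. The median model made up 5.10% of the reads on itself and its matched transcripts in replicate 1 and 4.06% in replicate 2. In 349 of the 2379 models (14.7%), from 244 genes, the suffix model had more reads than all its matched transcripts in both libraries. These held 7258 and 8300 reads, and their matched transcripts 875 and 1075. No read lay on a matched transcript in either library for 167 models.

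The share of models above their match was highest for the longest references. It was 8.33% for references under 1000 bases, 7.53% for 1000 to 2000, 8.38% for 2000 to 3000, 16.0% for 3000 to 4000 and 37.5% for 4000 bases or more. By exons missing it was 12.5% for 1, from 8.44% to 11% for 2 to 10, and 38.9% for 11 or more. Of the 124 models above their match that lacked 11 or more exons, 64 had matches at 0 in both libraries, and their references had a median of 7329 bases.

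**Figure D4:**
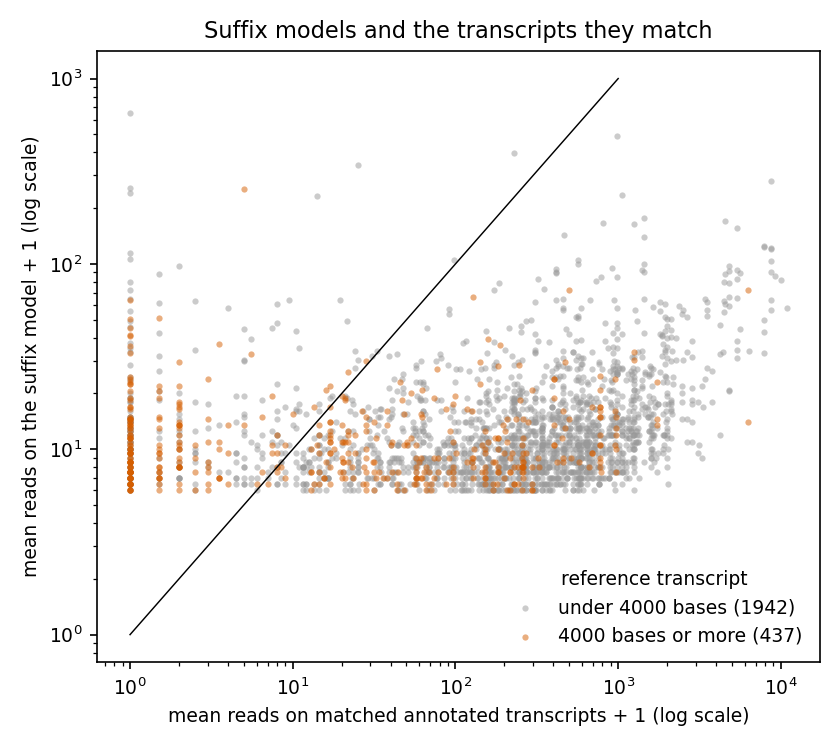
Mean reads of the 2 libraries plus 1 on each suffix model (y axis, log scale) against the mean plus 1 on the annotated transcripts it matches (x axis, log scale), for references under 4000 bases (grey) and of 4000 or more (orange); the line marks equality. Orange points are dense on the left, where the match has no reads, and 37.5% of them had more reads than their match in both libraries.

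In 50 genes with 20 or more spliced reads in each library, suffix models of the set held over 50% of the spliced reads in both. Some of these lead by a single model that lacked 1 exon. Psmc2 lacked 1 of 13 exons and held 89.6% ± 1.26 (SD, n = 2) of spliced reads, with 0 reads on its match. Bud23, a methyltransferase of ribosomal RNA, lacked 1 of 13 exons with 50 and 63 reads. S100a13, a calcium-binding protein, gave 110 and 117 reads on its leading model against 0 and 0. That model lacked 0 exonic bases at the 5′ side of its reference and was longer than it, at 1007 against 715 bases. Tspan12, a tetraspanin, gave 108 and 84 against 1 and 1, and Ctsa, the lysosomal cathepsin A, 87 and 87 against 0 and 1. The Ctsa model had 1753 bases against 3646 in its reference, of which 379 were missing at the 5′ side, and its coding region was cut. S100a13, Tspan12 and Ctsa were chosen after their values were seen.

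In other genes the leading model was a short 3′ piece. Tymp, thymidine phosphorylase, gave 78 of 78 and 79 of 80 spliced reads on 1 model that lacked 7 of 11 exons. Slc5a5, the sodium and iodide symporter known from the thyroid, gave 55 of 60 and 69 of 71 on a model that lacked 11 of 15. Myh7, the slow myosin heavy chain of heart and skeletal muscle, gave 36 of 54 and 63 of 79 on a model that lacked 31 of 41. Acta1, the actin of skeletal muscle, gave 2 models with 23 and 21 reads of 28 and 24. The matched transcripts of the Tymp, Myh7 and Acta1 models had 0 reads in both libraries, and that of Slc5a5 had 3 and 0. Myh7 and Acta1 were chosen after their values were seen.

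Yet other genes gave many models and few full-length reads. Sv2a, a glycoprotein of synaptic vesicles, gave 10 models with 105 and 140 reads against 12 and 20. Thra, a thyroid hormone receptor, gave 8 models with 154 and 175 reads against 2 and 6. Both genes too were chosen after their values were seen. Cadm1 gave 5 models that each lacked 1 exon, with 388 and 519 reads together against 0 and 0 on the matched transcripts.

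The members upstream of an annotated exon were few and mostly shallow. Snap47, a SNARE-domain protein, led with 58 and 68 reads against 834 and 1044 on its matched transcripts. Atp5a1, the alpha subunit of ATP synthase, followed with 38 and 41, then Tubgcp2, of the gamma-tubulin complex, with 29 and 30. Arhgap15, a GTPase-activating protein of Rac, had 23 and 24 reads on a model that lacked 11 of 14 exons, which was 77.0% ± 0.532 (SD, n = 2) of its spliced reads, and no read on its match. Slc1a3, the glutamate transporter of astrocytes, had 21 and 25, and a second model of Prkar1a had 20 and 25.

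Longer transcripts had larger suffix shares, here over all suffix reads of a gene and not the 2422 models alone. Among genes with 20 or more spliced reads in each library, suffix reads were 3.60% and 3.80% of spliced reads where the leading annotated transcript was under 1000 bases. They were 5.49% and 5.32% for 1000 to 2000 bases, 10.5% and 9.31% for 2000 to 3000, 16.1% and 15.0% for 3000 to 4000, and 15.0% and 14.6% for 4000 or more. The values of the last 2 groups overlapped between libraries. Prefix reads ran from 1.66% and 1.66% in the shortest group to 11.9% and 10.9% in the longest. By exon number the suffix share was 2.88% and 2.87% for leading transcripts of 2 to 4 exons and 29.8% and 29.5% for 20 or more. The median of spliced reads per gene fell from 95 in the shortest group to 54.5 in the longest. Genes with no leading annotated transcript were left out of these groups by length and exon number. Their suffix shares differed widely, as at 95.5% and 96.6% for Atp5f1 and 8.84% and 5.84% for Sept7.

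**Figure D5:**
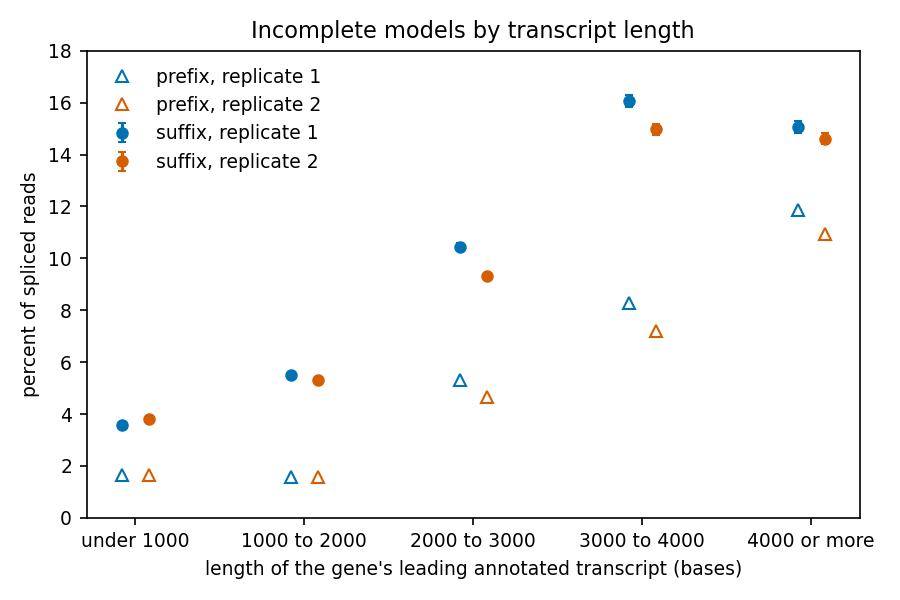
Suffix reads (filled circles, with exact 95% intervals for counting error) and prefix reads (open triangles) as percent of spliced reads, by length of the leading annotated transcript in bases, for replicate 1 (blue) and replicate 2 (orange). The suffix share stands at 3.60% and 3.80% for the shortest transcripts and at 15.0% and 14.6% for the longest. Genes with no leading annotated transcript are left out.

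Of 5844 genes tested, 18.7% held a member, and the share followed depth. It was 6.22% for genes of 20 to 49 spliced reads and 79.9% for 500 or more, so the median number of spliced reads per gene (mean of the 2 libraries) is given beside each gene group. The median gene had a suffix share of 7.59% in replicate 1 and 6.67% in replicate 2, at a median of 68.5 spliced reads. Genes with members had medians of 14.3% and 13.7%, but the rule asks for suffix reads in these genes, so nothing is read from the gap.

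Among neuronal groups, postsynaptic and receptor genes held members in 12 of 19 tested, with a median suffix share of 34.9% and 33.2% at 123.5 spliced reads and a median transcript of 4023 bases. Gria2, a subunit of AMPA receptors, gave 29 and 25 reads on the model printed above, Camk2a 57 and 28, and Camk2b 23 and 36. Ion pump and channel genes held members in 13 of 20, with medians of 33.7% and 34.0% at 130 reads, led by Atp1b1 of the sodium pump with 56 and 67 reads. Amyloid and adhesion genes held members in 10 of 15, with medians of 34.5% and 32.8% at 146 reads. Synaptic vesicle and release genes held members in 18 of 33, with medians of 16.5% and 13.7% at 159.5 reads, and Snap25 gave 50 and 52 reads with 1 exon missing. Signalling kinases and phosphatases held members in 17 of 29, with medians of 19.3% and 21.4% at 177.5 reads.

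In groups of more abundant and mostly shorter transcripts, median suffix shares ran from 6.78% to 13.9%. Glycolysis and creatine kinase genes held members in 16 of 17, with medians of 9.22% and 7.99% at 1378 reads and 2027 bases. Aldoa, the aldolase of this pathway, gave 105 and 87 reads on a model of 2 exons, and Ckb, the brain creatine kinase, 115 and 132. Translation genes held members in 24 of 26, with medians of 10.2% and 10.6% at 759.2 reads, led by Eef1a1 with 181 and 171 reads. Respiratory chain and citric acid cycle genes held members in 26 of 37 (6.88% and 6.78%, at 580.5 reads), with Atp5b at 59 and 64 reads. Chaperones held members in 18 of 29 (11.3% and 9.69%, at 361.5 reads), proteasome and ubiquitin genes in 13 of 22 (11.6% and 13.9%, at 288.5 reads), and cytoskeleton and motor genes in 26 of 48 (10.7% and 9.45%, at 256.5 reads), led by Actg1 with 176 and 162.

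In glial groups, median suffix shares ran from 1.12% to 8.53%. Myelin and oligodendrocyte genes held members in 9 of 17 (7.75% and 6.45%, at 262 reads), and astrocyte genes in 13 of 19 (6.11% and 8.53%, at 504 reads), with Ndrg2 at 174 and 158, Sparcl1 at 137 and 189 and Cst3 at 100 and 70. Microglial genes held members in 1 of 11 (1.12% and 2.34%, at 110 reads), which was C1qa with 36 and 52 reads. Vascular genes held members in 1 of 7 (10.9% and 6.91%, at 85.5 reads), which was Bsg. Choroid plexus genes held members in 1 of 3 (1.04% and 2.80%, at 1134 reads), which was Enpp2 with 10 and 6 reads. The lists differ in depth and length together, and the part of either in these shares was not tested.

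Replicate 1 was set against replicate 2 for each spliced chain with 10 or more reads in all, by Fisher's exact test, two-sided, with p-values adjusted after Benjamini and Hochberg and called at 0.05. Of the 16048 chains, 3.27% were called, 1.01% as higher in replicate 1 and 2.26% as higher in replicate 2. Of the 2422 models, 17 were called, 10 higher in replicate 1 and 7 higher in replicate 2. Their counts entered the rule, so nothing is read from that share. With library sizes from TMM, which shift all log2 ratios by 0.12, 420 chains were called and the models split as 12 and 4. With DESeq2 size factors 429 chains were called, and the models again split as 12 and 4. With edgeR's exact test, which took a dispersion from the 2 libraries treated as replicates, 0.231% of chains were called and 1 model, which was Trf. At an unadjusted p of 0.05 edgeR gave 38 models, and 527 of the 16048 chains.

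Among models higher in replicate 1, Trf, the iron carrier transferrin, had 52 reads against 8, an adjusted p of 3.9e-07 by Fisher's exact test and of 0.000978 by edgeR. Its matched transcripts had 1857 and 2149 reads. Sparc, a secreted matrix protein, had 35 and 11, Rpl4, a ribosomal protein, 39 and 13, and Ttc3, a ubiquitin ligase, 50 and 18. Ppp2r1a had 298 and 172 on the model that lacked 4 exons (adjusted p = 1.78e-07, Fisher's exact test) and 39 and 14 on the one that lacked 3 (0.0199). By edgeR these 5 had adjusted p from 0.387 to 0.959.

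Among models higher in replicate 2, a second model of Ttc3 had 5 and 22 reads, a Nell2 model that lacked 2 exons had 10 and 33, and 2 models of Ndrg2 had 25 and 65 and 24 and 60. Clcn4 had 195 and 309 reads, a ratio of 1.54, with an adjusted p of 0.000188 by Fisher's exact test and 1 by edgeR. No model in this direction was called by edgeR, whose adjusted p for them ran from 0.888 to 1.

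The suffix share within genes was compared in the same way over 5844 genes with 20 or more spliced reads in each library. Fisher's exact test called 0.325% of genes, 0.205% as higher in replicate 1 and 0.12% as higher in replicate 2, and 11 of the 19 genes called held members. In the 3 of these 11 with the widest gaps, a chain of similar read number carried a different class in each library. Ndufa13, a subunit of respiratory complex I, had a share of 98.0% in replicate 1 and 1.18% in replicate 2, but its leading chain had 779 and 735 reads and was deposited as Suffix in replicate 1 and as another incomplete subtype, Both, in replicate 2. Uchl1, a deubiquitinase of neurons, had 927 and 950 reads on a chain deposited with an unannotated splice site in replicate 1 and as Suffix in replicate 2. Atp5j, another ATP synthase subunit, had 413 and 385 reads on a chain of the classes Suffix and Both. In all, 51 chains with 5 or more reads in each library were Suffix in 1 library alone, and they are not among the 2422.

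When a chain was counted as Suffix in both libraries wherever either gave that class, a choice made after seeing the data, 7 genes were called, which is 0.12% of those tested. They were Ppp2r1a, Actg1, Trf, Syn2, Cab39l, Ociad2 and Sparc. In Ppp2r1a the suffix share was 33.1% in replicate 1 and 19.7% in replicate 2, with 440 of 1328 and 318 of 1614 spliced reads and an adjusted p of 9.08e-13 by Fisher's exact test. These p-values on gene shares set 1 library against 1 and cover counting error alone, with no allowance for spread between libraries. In Actg1, cytoplasmic gamma actin, it was 8.30% and 5.36% (4.07e-05), and in Trf 9.52% and 5.73% (0.00197). Ociad2 alone among the 7 was higher in replicate 2, with 2.46% and 12.5%. All 6 other genes had the higher share in replicate 1.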

How the data were processed

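The authors deposited, per library, whole-number counts of long reads per TALON model with its class, and an annotation of the models whose source column names TALON. The values are raw, as their whole numbers and unequal totals show. The deposited tables also give exon number and length. Genome (mm10) and gene models (GENCODE M21) are named in the deposited description files. The sources used here do not name the aligner, platform, strand setting or filters. Members and gene lists were chosen with earlier results of these data known.

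Chains were joined between libraries by intron chain and given the annotated gene that shares most introns, since 27 models had different gene names in the 2 libraries. Named models followed a rule. It took the 10 of highest CPM, 6 with most exons missing and 6 of highest share in genes of 50 or more spliced reads. It also took 6 genes with most models, 5 called per direction, 6 at annotated starts, 6 upstream of an annotated exon and up to 3 per list. All other genes named were chosen after their values were seen, and some items are not reported here. The printed sequences outside that rule, those of Pkm and Myh7 and of the Hspa8 models with 5 and 6 exons missing, were chosen after their values were seen.

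Fisher's exact tests used Python 3.11.15 with scipy 1.17.1 and were tested on simulated data. The alternatives used edgeR 4.0.16 and DESeq2 1.42.0. Promoter letters came from RefSeq (GRCm38.p6).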

Additional observations from a re-analysis of the deposited data

How the results depend on the processing

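The number of suffix models depends on the read threshold: it was 945 at 10 reads in each library and 4777 at 3, and 3696 to 3888 when each library was used alone, a setting chosen after seeing the data. Taking a chain whatever its class in the other library gave 2473. The share of spliced reads was 4.06% with annotated and ISM reads as the denominator, 2.64% at 10 reads in each library, and 3.69% to 3.77% with each library alone. At 10 reads in each library, 416 models lacked 3 or more exons and 630 began at or inside an internal exon; fewer models are counted there by construction. The window around annotated starts and the library that gave the start moved these counts by less than 1.5 times. Genes called for their suffix share fell from 19 to 11 with annotated and ISM reads as the denominator and to 7 with 1 class per chain. Models called between libraries numbered 9 with no filter on low counts (267 of 162512 chains called), 1 with edgeR's exact test (37 of 16048) and 10 against the rest of the gene's spliced reads (49 of 16048), all 10 higher in replicate 1. The suffix share of transcripts of 4000 bases or more was 14.6% to 15.0% with each library alone. No paired analysis was possible because there is 1 group. A median of 9 to 10 reads limits what can be said of single models.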
